A study of Drosophila melanogaster with 2 samples.

Results

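The genes described here are 10 genes of the endoplasmic reticulum (ER) stress response of Drosophila melanogaster, out of 13945 protein-coding genes on the chromosome arms 2L, 2R, 3L, 3R, 4 and X. They were taken by name and not by a measured value. Hsc70-3, Gp93 and Manf act in the ER lumen, Ire1 and PEK are the stress sensors, and Herp, sip3, Der-1, Edem1 and Edem2 act in ER-associated degradation. For each gene, every summit of Atf-2-GFP chromatin immunoprecipitation within the gene span plus 5 kb on either side was collected on the dm6 build. The 10 windows were 11.4 to 17.4 kb long and held 20 annotated transcription start sites (TSSs) of the 10 genes. No gene of the 10 lies on 2R.

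When unfolded proteins build up in the ER, cells reduce protein synthesis, raise the supply of chaperones and send misfolded proteins to the cytosol for degradation. In the fly, Ire1 is a transmembrane kinase and RNase that splices the mRNA of the factor Xbp1, and PEK is a transmembrane kinase that phosphorylates eIF2alpha and so favours translation of the factor crc, the fly ATF4. Xbp1, crc and Atf6 are basic leucine zipper (bZIP) proteins, the same class as Atf-2. Mammalian genes of this response carry ER stress elements (ERSE) and unfolded protein response elements (UPRE), and the UPRE core resembles the cAMP response element (CRE), the site bound by relatives of Atf-2.

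The samples were whole embryos, 0 to 24 h old and of both sexes, from 1 transgenic line that expresses Atf-2 with GFP at its C-terminal end. Chromatin was precipitated with an antibody to GFP, per the labels. The labels name no stress treatment and no other group, so the values describe embryos as collected and no contrast between conditions could be made. The 2 samples are biological replicates 2 and 3, and a control was used in peak calling but is not analysed here. In whole embryos, strong occupancy in few cells and weak occupancy in many cannot be told apart. The dm6 lists analysed were the 30000 regions of each replicate, the 30000 regions of the pooled replicates and the 3265 peaks retained by the irreproducible discovery rate (IDR). These 3265 peaks were the strongest of the pooled list, which fell from a signal of 1965 to 84.6 at the last IDR peak and to 23.3 at its end. Signal is a score per region from the peak caller the authors used, ranks count from the strongest, and the pooled and replicate lists include background, so that a region outside the IDR list is not a call. Read depth is unknown.

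Herp and Ire1 carried strong Atf-2-GFP peaks at their promoters, and the other 8 genes had no IDR peak there. An IDR summit lay within 500 bp of a TSS in 2 of the 10 genes, while 14.9% of all protein-coding genes had one. The same 2 genes were the ones with a promoter region among the 3265 strongest regions of replicate 2, where 15% of all genes had one, and among those of replicate 3, where 14.1% did. The share of 2 in 10 is near these backgrounds. Over the whole window, 4 of the 10 genes had an IDR summit against 39.2% of all genes, which is also near the background.

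At any rank of the pooled list, each of the 10 genes had a region with its summit within 500 bp of a TSS, and 51.1% of all genes did. In 9 of the 10, both replicate lists also held a region there, against 38.7% of all genes. PEK was the exception, with a region in replicate 2 and none in replicate 3. The median signal of the strongest promoter region was 70.2 over the 10 genes, with a range of 29.4 to 328, and 51.4 over the 7121 genes of the genome that had a pooled region at a TSS. The summits of these regions lay 6 to 375 bp from the nearest TSS of their gene, with a median of 74 bp, against 158 bp over the 7121 genes. Manf, Der-1, Hsc70-3 and Edem2 were the next of the 10 genes below the IDR limit of 84.6, with pooled signals of 69.9 to 76.0. Their strongest promoter regions ranked 3814 to 4312 in the pooled list. A strongest promoter region ranked 3266 to 6530 was found in these 4 of the 10 genes and in 9.63% of all genes, a range of ranks that was chosen after the values were seen. These counts describe the list and were not tested.

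**Figure D1:**
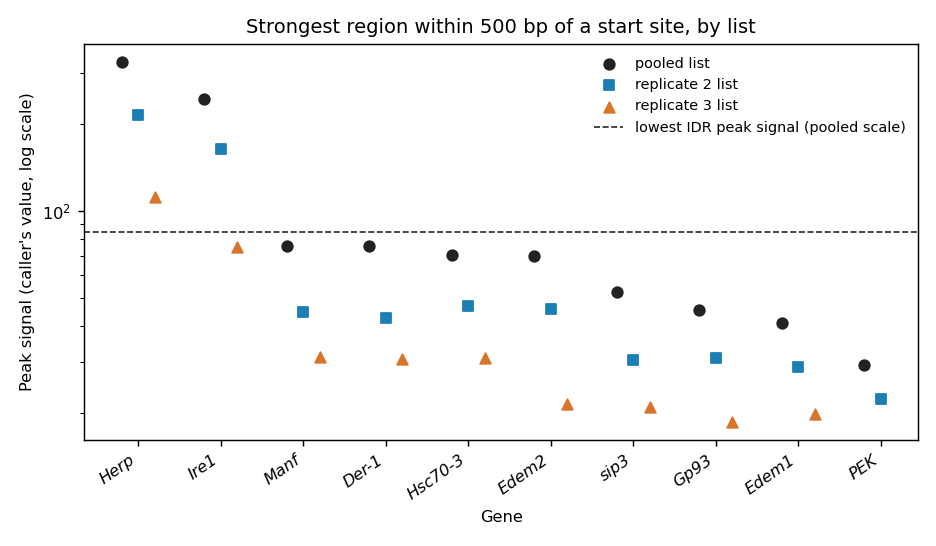
Signal of the strongest region within 500 bp of a TSS (log axis) for each of the 10 genes in the pooled list (circles), the replicate 2 list (squares) and the replicate 3 list (triangles), with the lowest IDR signal of 84.6 as a dashed line on the pooled scale. Herp and Ire1 stand above the line at 328 and 244, the next gene is Manf at 76.0, and PEK has no region in replicate 3.

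Herp encodes an ER membrane protein that recruits the degradation machinery. The gene (FBgn0031950) is on the minus strand of chromosome 2L at 7796314 to 7800058 and has 2 TSSs. Its IDR summit at 7799997 had a signal of 328 and ranked 275 of the 3265 IDR peaks. Replicate 2 gave that peak a signal of 216 at rank 288 and replicate 3 a signal of 112 at rank 281, with summits 20 bp apart. By the strongest promoter region of each gene, Herp was number 241 among all protein-coding genes by pooled signal, 262 by replicate 2 and 245 by replicate 3. The summit lay in the 5′ UTR, 61 bp downstream of the outermost TSS. The interval, at 7799828 to 7800002, was 175 bp wide, narrower than the 436 bp of the other 4 IDR intervals in the windows.

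Herp shares its promoter with r2d2, which encodes a double-stranded RNA-binding partner of Dicer-2 and is transcribed in the other direction. The nearest starts of the genes are 89 bp apart, and the Herp summit was 150 bp from the r2d2 start. Another summit in the 5′ UTR of r2d2 was present in replicate 2 at 7800179 with a signal of 75.8 (rank 2044) and in the pooled list at 7800198 with a signal of 46.0 (rank 8521). Its region began at 7799967 in replicate 2 and at 7799980 in the pooled list, and so overlapped the Herp interval. The Herp interval ended close to its summit on that side, at 7799971 in replicate 2 and 7800002 in the pooled list. No gap thus sets the Herp peak apart from r2d2. Replicate 3 had no separate summit between the Herp peak and 7800754. The stretch between both genes is shown because their starts lie at its ends, beside the strongest peak of the 10 windows. It contains the E-box (CANNTG) that lies 88 bp from the summit. The sequence is that of the RefSeq Release 6 genome (dm6, chr2L:7800059-7800146, minus strand, so that it reads toward Herp), with the E-box in capitals.
Herp gap: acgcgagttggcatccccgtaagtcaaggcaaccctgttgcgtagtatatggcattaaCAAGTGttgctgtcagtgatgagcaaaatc

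Ire1 (FBgn0261984) is on the minus strand of 3R at 19853908 to 19861291 with 1 annotated TSS. Its IDR peak, at 19861245 to 19861680 with the summit at 19861463, had a signal of 244 and ranked 512. It had a signal of 164 at rank 511 in replicate 2 and of 75.4 at rank 663 in replicate 3, with summits 50 bp apart. Among all protein-coding genes the Ire1 promoter was number 418 by pooled signal, 438 by replicate 2 and 497 by replicate 3. The summit was intergenic, 172 bp upstream of Ire1 and 147 bp upstream of Mrm2, a gene named for a mitochondrial rRNA methyltransferase that starts 319 bp away on the opposite strand. The replicate 2 summit was 159 bp from the Ire1 start, about midway between both starts, and the replicate 3 summit was 209 bp from it, on the Mrm2 side. The 201 bases around the pooled summit lie wholly between the genes and are shown from the RefSeq Release 6 genome because this is the peak at a stress sensor (dm6, chr3R:19861363-19861563, minus strand, toward Ire1). Capitals mark the 11 bases centred on the summit.
Ire1 peak: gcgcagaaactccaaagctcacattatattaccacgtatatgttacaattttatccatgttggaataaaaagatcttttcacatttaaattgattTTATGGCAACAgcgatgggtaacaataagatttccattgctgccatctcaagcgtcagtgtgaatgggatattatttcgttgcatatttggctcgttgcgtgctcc

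PEK, the other sensor kinase (FBgn0037327, 3R at 5458563 to 5464753, minus strand), was the weakest of the 10 at its promoter. Its strongest pooled region there had a signal of 29.4 and ranked 20012, with the summit 269 bp downstream of a TSS in the 5′ UTR. Replicate 2 gave 22.4 (rank 14963) and replicate 3 listed no region within 500 bp of any of its 3 TSSs. The IDR summit in the PEK window, at 5467131 with a signal of 95.8 (rank 2705), was 2378 bp upstream of the nearest PEK start and 30 bp from that of RpL35A, a ribosomal protein gene. Of the sensors, Ire1 was thus well inside the IDR list and PEK far outside it.

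The lumenal chaperone genes had weak regions at their starts. Hsc70-3 encodes BiP, the main Hsp70 chaperone of the ER, and lies on X at 11801696 to 11807117 (FBgn0001218, minus strand, 4 TSSs). Its strongest region was intronic at 11806385, 32 bp upstream of an internal TSS, with a signal of 70.5 pooled (rank 4256), 47.0 in replicate 2 (rank 4181) and 31.1 in replicate 3 (rank 3598). Its pooled −log10 q-value was 2.75, while all IDR peaks carried 3.86. Another pooled region at 11807634, 517 bp upstream of the outermost TSS, had a signal of 59.6 (rank 5456).

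Gp93 encodes the ER form of Hsp90 and is on 3R at 27948711 to 27952151 (FBgn0039562, plus strand). The region at its start, 17 bp upstream of the TSS, had a signal of 45.7 pooled (rank 8631), 31.0 in replicate 2 (rank 7985) and 18.7 in replicate 3 (rank 11056). Manf, on 3R at 16349404 to 16350801 (FBgn0027095, plus strand), encodes a secreted ER stress protein that supports dopaminergic neurons. Its strongest promoter summit, 375 bp upstream at 16349029, had a signal of 76.0 pooled (rank 3814), 44.7 in replicate 2 (rank 4509) and 31.4 in replicate 3 (rank 3527). That summit was in the 5′ UTR of CG14879, which starts 178 bp from Manf on the opposite strand. A weaker pooled summit at 16349233, 171 bp upstream of Manf and 7 bp from the CG14879 start, had a signal of 48.3. Neither chaperone nor Manf had a region among the 3265 strongest of either replicate anywhere in its window.

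Among the degradation genes other than Herp, Der-1 came closest to the limit. Der-1 encodes a derlin, a membrane protein of the retrotranslocation channel (FBgn0267972, 2L at 1973957 to 1975413, plus strand). Its strongest region, with the summit 6 bp downstream of a TSS in the 5′ UTR, had a signal of 75.7 pooled (rank 3844), 42.7 in replicate 2 (rank 4786) and 30.8 in replicate 3 (rank 3679). Edem2, one of the mannosidase-like lectins that mark glycoproteins for degradation (FBgn0032480, 2L at 13192201 to 13197281, plus strand), had 69.9 pooled (rank 4312) at 87 bp upstream of its TSS. That summit was also 135 bp from the start of CG16974, which begins 222 bp from Edem2 on the opposite strand. The replicates differed in rank at Edem2, with 45.9 in replicate 2 (rank 4334) and 21.6 in replicate 3 (rank 7902). Edem1, its paralogue on X at 1903704 to 1908827 (FBgn0023511, minus strand), was weaker, with 41.0 pooled (rank 10574), 28.9 in replicate 2 (rank 9112) and 19.9 in replicate 3 (rank 9553). Its summit was 29 bp upstream of an internal TSS and 89 bp from a start of mip130, a gene of the Myb-MuvB complex.

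The gene sip3 encodes the fly Hrd1, the ubiquitin ligase of ER-associated degradation (FBgn0039875, 3R at 31772219 to 31775163, plus strand). Its promoter region, 223 bp upstream of the TSS, had a signal of 52.5 pooled (rank 6720), 30.6 in replicate 2 (rank 8165) and 21.0 in replicate 3 (rank 8432). That pooled summit was nearer to the start of betaGlu, at 148 bp, which begins 371 bp from sip3 on the opposite strand. Replicate 2 placed the summit 97 bp from betaGlu and 274 bp from sip3. Replicate 3 placed it 99 bp from betaGlu and 272 bp from sip3. An IDR summit in the sip3 window had a signal of 110 (rank 2179). It lay 4748 bp downstream of the sip3 start and 53 bp from that of faf, which encodes a deubiquitinase. The sip3 promoter was the 1 promoter of the 10 that held the site of the promoter factor DREF (DRE, TATCGATA), which begins 10 bases before the start, and the 100 bases before its start are shown from the RefSeq Release 6 genome for that reason (dm6, chr3R:31772119-31772218, plus strand, DRE in capitals).
sip3 upstream: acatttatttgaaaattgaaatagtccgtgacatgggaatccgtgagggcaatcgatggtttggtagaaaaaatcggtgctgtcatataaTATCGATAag

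**Figure D2:**
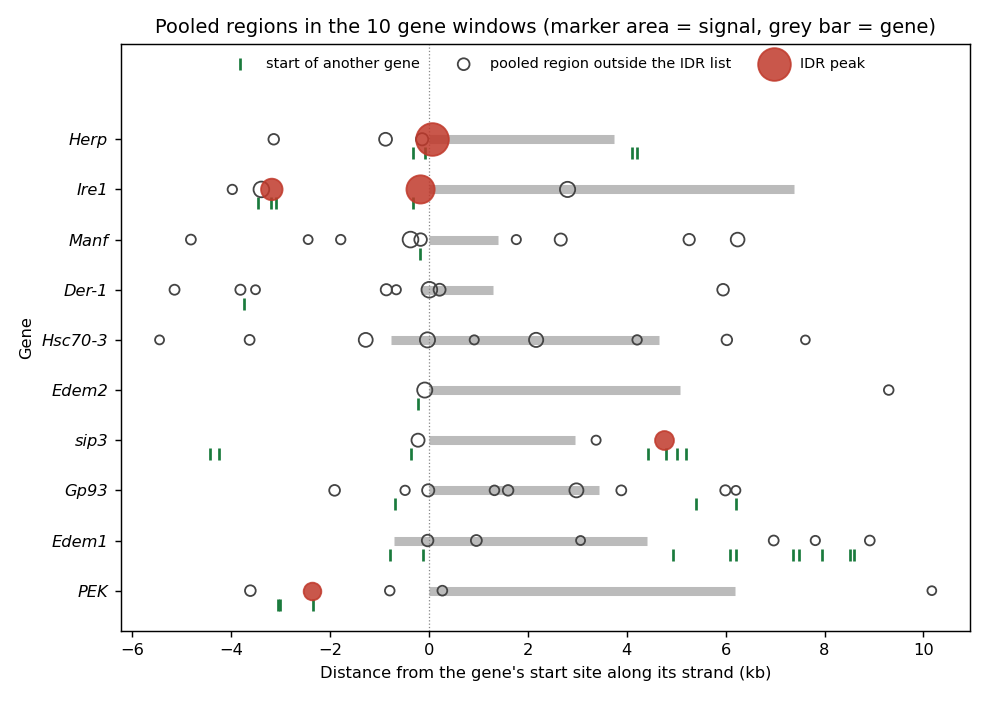
Pooled regions in the 10 windows by distance from the start site nearest to the gene's strongest promoter summit, along the strand of the gene (kb), with the area of each marker in proportion to its signal. Filled markers are the 5 IDR peaks, open markers the 55 other pooled regions, grey bars the genes and ticks the starts of other genes. The IDR peaks in the windows of PEK and sip3 and the upstream one of Ire1 sit at ticks of other genes.

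Of the 5 IDR summits in the windows, 3 lay at the start of a neighbour more than 2 kb from a TSS of the listed gene, namely CG4686 (24 bp), RpL35A (30 bp) and faf (53 bp). The Herp summit was nearest to Herp. The Ire1 promoter summit was nearest to Mrm2 by the pooled position (147 bp) and by that of replicate 3 (110 bp). By that of replicate 2 it was about midway, with Ire1 nearest at 159 bp. By pooled positions, the gene's own start was thus the nearest for 1 of the 5 (20%). Over the windows of all protein-coding genes it was the nearest for 32.7% of 8577 pairs of a window and an IDR summit. The 3265 summits enter these pairs once for each window that holds them, while a summit mostly has 1 nearest start. Overlap of windows by itself thus holds this share low, and it does not measure a preference for neighbours' starts. With 5 summits, the list cannot be set apart from it. The CG4686 summit, at 19864472 on 3R and 3181 bp upstream of Ire1, had a pooled signal of 142 (rank 1432), with 101 (rank 1311) for replicate 2 and 45.0 (rank 1817) for replicate 3. A smaller pooled summit beside it at 19864683 had a signal of 75.5, and replicate 2 ranked its counterpart there 2704 with a signal of 63.8. Per 100 kb of window, the 10 genes held 3.52 IDR summits and all protein-coding genes 3.64, where overlapping windows count a summit more than 1 time.

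Shared starts were common in the list. For 6 of the 10 genes, another protein-coding gene started within 500 bp on the opposite strand (Herp, Ire1, Edem1, Edem2, sip3 and Manf), against 27.8% of all protein-coding genes. Over all genes, an IDR promoter summit was present at 30.5% of those with such a neighbour and at 8.94% of those without. These shares count genes and not peaks. A gene with such a neighbour can be counted for a summit at the neighbour's start, so part of the gap is built into the count. Both genes of the list with an IDR promoter summit, Herp and Ire1, were among the 6. The other 4 of the 6 had no IDR promoter summit, and neither had Hsc70-3, Gp93, PEK and Der-1, which lack such a neighbour. The part of the neighbouring start in these signals was not tested.

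The replicates ranked the 5 peaks in the same order, with the ranks closest at Herp. The IDR list was made from the lists of these same replicates, so part of this agreement follows from how the peaks were chosen. Herp ranked 288 in replicate 2 and 281 in replicate 3, and Ire1 ranked 511 and 663. The CG4686 peak ranked 1311 in replicate 2 and 1817 in replicate 3. The faf peak ranked 1833 in replicate 2 with a signal of 81.2 and 3910 in replicate 3 with a signal of 29.9. The RpL35A peak ranked 2562 in replicate 2 with a signal of 66.1 and 4097 in replicate 3 with a signal of 29.2. By replicate 3 alone, the windows of PEK and sip3 held no region among the strongest 3265. Summits of the 5 peaks lay 9 to 61 bp apart between the replicates. At the 5 peaks the ratio of replicate 2 to replicate 3 signal had a median of 2.24 and ran from 1.93 to 2.72. Over the 3254 IDR peaks with a region in both lists the median was 1.93, with quartiles of 1.56 and 2.40. Each list has its own signal scale, and the ratio is not a measure of unequal binding.

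**Figure D3:**
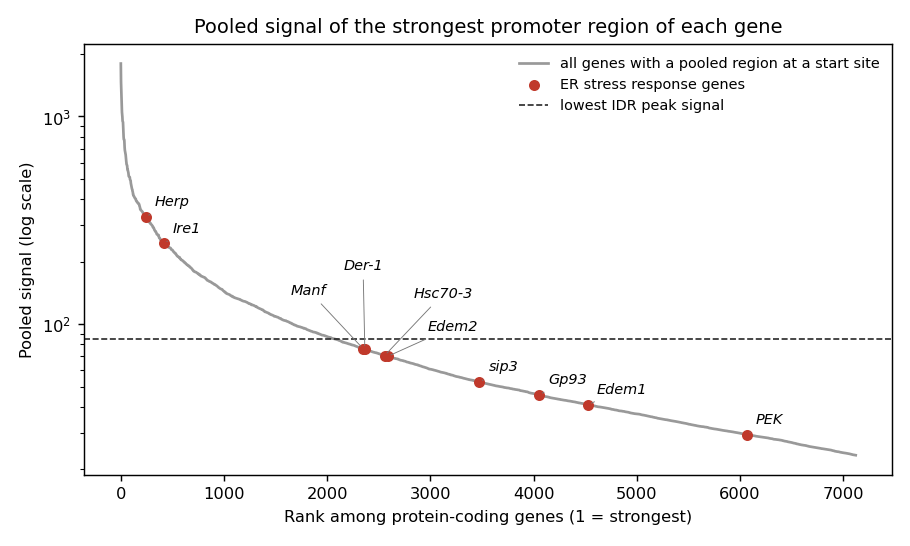
Pooled signal of the strongest promoter region (log axis) against its rank among protein-coding genes, for all 7121 genes with such a region (line) and the 10 genes (points), with the lowest IDR signal of 84.6 dashed. Herp (rank 241) and Ire1 (418) stand on the steep part, Manf to Edem2 lie between 2349 and 2586 below the limit, and PEK is at 6067.

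Sites of the bZIP factors of the stress response were not found at these peaks. Both strands of the 201 bp windows centred on the 5 IDR summits were searched for the CRE (TGACGTCA), the UPRE core (TGACGTGG), the CEBP-ATF site (TGATGCAA), the ERSE (CCAAT and CCACG with 9 bases between), the ERSE-II (ATTGG and CCACG with 1 base between), the AP-1 site (TGANTCA), the PAR bZIP site (TTACGTAA), the DRE and the E-box. No window held any of them except the E-box, which was in 4 of the 5 windows and in 61.4% of all IDR windows. The Ire1 promoter window was the 1 without an E-box, and the Herp window held 5, the nearest 6 bp from the summit. Over all 3265 IDR windows the CRE was in 0.490%, the UPRE core in 0.0919%, the CEBP-ATF site in 0.643%, the PAR bZIP site in 0.490%, the AP-1 site in 5.02% and the DRE in 3.74%, and ERSE and ERSE-II were in 0; at such shares most sets of 5 windows hold none.

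The promoters of the 10 genes, taken from the Release 6 sequence as 250 bases before to 50 after the RefSeq gene start, were searched in the same way. All 10 genes matched a RefSeq gene by symbol. No CRE, UPRE core, CEBP-ATF, ERSE, ERSE-II, AP-1 or PAR bZIP match was found in these promoters. The stretches searched did not contain the strongest promoter summits of Hsc70-3, Edem1, Der-1, PEK, Manf and Herp. Of these summits, only that of Herp was searched, in its IDR window, and the bases at the others were not. Among 13925 protein-coding promoters the CRE was in 0.438%, the UPRE core in 0.373%, the CEBP-ATF site in 0.819%, the PAR bZIP site in 0.452%, the AP-1 site in 6.19%, the ERSE in 0.0215% and the ERSE-II in 0. The DRE was in 1 of the 10 promoters (9.37% of all) and the E-box in 6 of 10 (77.3% of all). These letters are not in these windows, which says nothing of weaker sites. Of the 10 words of 8 bases that had led an earlier scan of the same peaks, the DRE among them, TACACTGA occurred 84 bases from the summit at CG4686 and the other 9 were in none of the 5 windows. TACACTGA was in 3.49% of all IDR windows. In the 10 promoters, 5 of these words occurred. ACAGTGGG was in that of Ire1 (0.969% of all promoters), ATCGATAG in that of Edem1 (8.55%), TTTAAAAA in that of PEK (14.3%), AAAAAAAT in those of Gp93, PEK and sip3 (13.98%), and the fifth was the DRE of sip3. The GC content of the 5 windows was 34.8 to 41.3%, beside a mean of 37.0% over all IDR windows.

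The rest of the pathway was read from a list of 31 other genes. An IDR promoter summit was present at 8 of the 31 (25.8%, against the background of 14.9%), and a pooled region of any rank at 24 of them (77.4%, against 51.1%). The 8 include Ubc6, which was listed by its name alone. The median signal over these 24 was 54.1. In the whole window, 20 of the 31 genes had an IDR summit, against 39.2% of all genes. Per 100 kb of window the 31 genes held 7.56 IDR summits, against 3.64 for all protein-coding genes. These differences were not tested. Each role except the pair of BI-1, an ER membrane inhibitor of cell death, and RtcB, the ligase of Xbp1 splicing, had at least 1 IDR promoter summit.

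Among the degradation genes, Hrd3 had the strongest promoter peak of all 41 genes considered. Hrd3 encodes the partner of sip3 in the ligase complex, and its peak had a signal of 512 pooled (rank 93), 350.1 in replicate 2 (rank 91) and 164 in replicate 3 (rank 102). That summit was at −235 bp from the Hrd3 start but 87 bp from that of PTPMT1, a gene named for a mitochondrial phosphatase. Ubc6, a ubiquitin-conjugating enzyme gene, had 161 pooled (rank 1168), 107 in replicate 2 (rank 1168) and 59.0 in replicate 3 (rank 1087). Ubc6 was placed in this role by its name, and whether the fly gene acts in ER-associated degradation was not checked. It is counted among the 8 other pathway genes with an IDR promoter summit, so that count may hold a gene from outside the pathway. Der-2, Ufd1, Npl4, TER94 and Ubc7 had pooled signals of at most 52.2 and no IDR promoter summit.

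Sec61alpha, the channel subunit of the translocon, had a signal of 225 pooled (rank 615), 159.9 in replicate 2 (rank 537) and 70.8 in replicate 3 (rank 740), with the summit at −181 bp from the Sec61alpha start and 173 bp from Daxx. P58IPK, a co-chaperone whose mammalian homologue restrains PERK, the homologue of PEK, had 141 pooled (rank 1452), 109 in replicate 2 (rank 1134) and 35.6 in replicate 3 (rank 2791). Cnx99A, a calnexin, had 113 pooled (rank 2088), 80.8 in replicate 2 (rank 1852) and 33.0 in replicate 3 (rank 3216).

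ERp60, a protein disulfide isomerase, had 93.9 pooled (rank 2797), 71.1 in replicate 2 (rank 2277) and 22.9 in replicate 3 (rank 6900), so replicate 3 alone would not place it among its strongest 3265. Creld had 84.7 pooled (rank 3258), 50.04 in replicate 2 (rank 3804) and 33.9 in replicate 3 (rank 3072), with its summit in a coding exon. The region just inside the IDR limit had a signal of 84.58 and the one just outside it 84.58 as well, to this precision. Of the 3 bZIP factors of the response, Xbp1 had an IDR promoter summit with a signal of 126 pooled (rank 1736), 88.1 in replicate 2 (rank 1628) and 38.7 in replicate 3 (rank 2385). At crc the pooled signal was 50.8 (rank 7102), and Atf6 had no pooled region at its start. The translation factor gene eIF2alpha, the substrate of PEK, and PPP1R15, its phosphatase subunit, had no promoter region in any list.

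**Figure D4:**
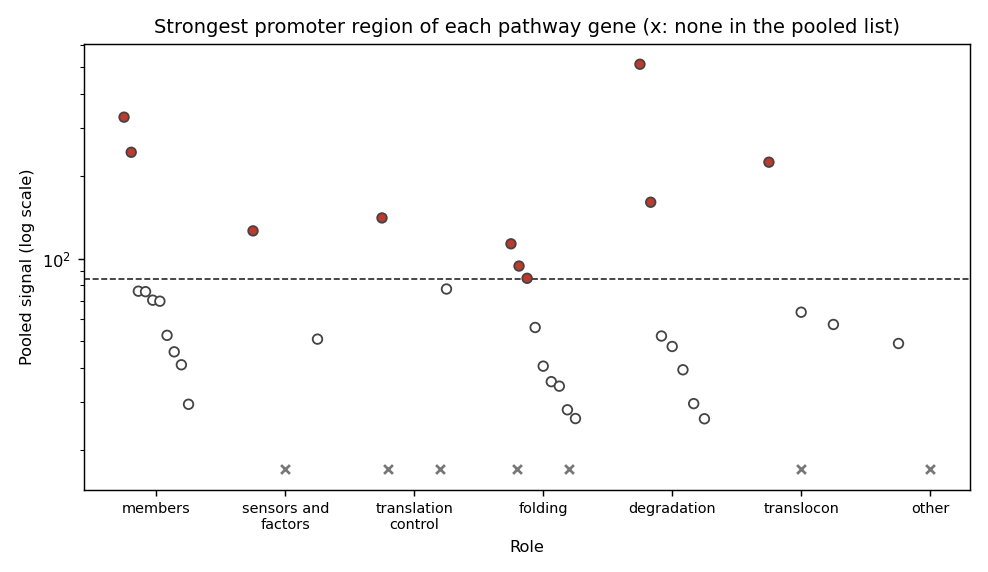
Pooled signal of the strongest promoter region (log axis) for the 10 genes and the 31 other pathway genes by role, with the lowest IDR signal of 84.6 dashed, filled points in the IDR list, open points below it and crosses for genes with no pooled region at a TSS. Of the 10 genes 2 are filled, and of the 31 others 8 are, led by Hrd3 at 512.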

How the data were processed

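The lists are peak files of build dm6, called by the authors on each replicate with a control, on both replicates together and, for the IDR list, from those 3 lists, per the deposited readme texts. The signal of each region and its −log10 q-value are the deposited values of the authors' caller. The sources used here do not name the aligner, the caller, their versions or the IDR threshold. The dm3 lists were not used. Summits were placed on genes of Ensembl release 115, and sequences were cut from the RefSeq Release 6 genome, with Python 3.11.15, numpy 2.4.6, pandas 2.3.3 and matplotlib 3.10.9, with coordinates counted from 1. A gene's window was its span plus 5 kb on either side. A promoter summit lay within 500 bp of any TSS of the gene, and 1 summit can count for several genes. Replicate regions were matched by an overlap of 1 bp, taking the highest signal. With 1 group there was no test, and no statistic has a p-value. Background shares are over 13945 protein-coding genes. No promoter table was at hand, so promoters were cut by their stated definition. Counting was tested on simulated summits. Grp170 was listed under its older name CG2918. The genes, the pathway list and the motifs were chosen with earlier results of these data known, and the 10 words of 8 bases were picked on these same peaks. All members are named, as are the genes nearest to their IDR summits and the other pathway genes with an IDR promoter summit; other names were added after their values were seen.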

Additional observations from a re-analysis of the deposited data

How the results depend on the processing

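The 2 genes with an IDR promoter summit, Herp and Ire1, were counted under each alternative tried for that result, namely distances of 250 and 1000 bp, the outermost TSS alone, interval overlap, the strongest 1632 IDR peaks, and without either replicate. The 4 genes with an IDR summit in the window and the 5 summits depended on the window. The gene span alone gave 1 gene and 1 summit, a flank of 2000 bp gave 3 summits and one of 10000 bp gave 10. The strongest 1632 IDR peaks gave 2 genes and 3 summits. Leaving out each replicate in turn gave 2 to 4 genes and 3 to 7 summits, with the lower values without replicate 2. The 8 other pathway genes with an IDR promoter summit fell to 4 among the strongest 1632 peaks. In all, 9 of 34 alternatives moved a value by more than 1.5 times. The other 25 stayed within 1.5 times, and some of these also changed the value, such as 5 summits to 7 without replicate 3. No paired analysis was possible because there was 1 group and no test. Depth is unknown, so the weak regions below the IDR limit carry no counting interval.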

Other observations

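Regions of the pooled list were also found within the genes. In the Gp93 window the strongest pooled region was not at the start but in the coding sequence, 2981 bp downstream of the TSS, with a signal of 60.2 (rank 5376), and with 32.5 (rank 7359) for replicate 2 and 28.2 (rank 4405) for replicate 3. The signal at the start was 45.7. In Hsc70-3 a coding region 934 bp from the nearest TSS had 61.9 pooled, 28.2 in replicate 2 and 29.6 in replicate 3. In Ire1 an intronic region 2802 bp downstream of the TSS had 71.3 pooled (rank 4199), with 41.0 (rank 5102) for replicate 2 and 30.6 (rank 3721) for replicate 3. Of the 55 pooled regions in the windows outside the IDR list, 20 had their summit in a coding exon, with signals of 24.8 to 61.9, and 13 in an intron. These exons and introns belong to the listed genes or to neighbours in the windows. The same shares over all pooled regions were not computed, so these counts do not set the windows apart.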
